A study of Bos taurus with 4 samples.

Results

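TGF-beta, bone morphogenetic protein (BMP) and activin signalling was followed through 51 genes. They were chosen by name for their place in the pathway, with earlier results of these data known. They are ligands, the proteins that store or trap ligands, receptors, SMAD proteins with their corepressors, and ID and TGFBI targets. Of the 51, 47 had at least 1 probe carrying their name, 105 probes in all. No probe was named GDF11, ID4, LTBP4 or NOG. A gene was tested if its brightest probe stood well above background, as called by the scanning software, on all 3 arrays of at least 1 group. This left 43 members of 17705 genes tested among 25232 gene names, and 41 of the 43 were well above background on all 12 arrays. The probes of BMP3, GDF10 and INHBB were well above background on 0 of 12 arrays, and that of ACVR1B on 6, with at most 2 in a group.

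The cells were bovine intramuscular preadipocytes (BIP), fat cell precursors from within skeletal muscle, known as a clonal line. RNA of 4 groups was measured on 12 arrays with 1 colour, 3 arrays per group: cells at day 0 of adipogenic stimulation with no retinoid, and 3 groups at day 6, which were grown with all-trans retinoic acid (ATRA, 1 µM), with 9-cis retinoic acid (9cRA, 1 µM) or with neither (day 6 control). Confluent cultures had been moved to medium with insulin (50 ng/mL), dexamethasone (0.25 µM), octanoate (5 mM), acetic acid (10 mM) and 10% fetal bovine serum, with penicillin and streptomycin, renewed every 2 days. The serum and dexamethasone were thus common to the 3 day 6 groups. The labels list every group as 1 sample, and nothing says that its 3 arrays came from separate cultures, so the p-values measure the spread between these arrays, which may be technical. By its title the series asks what vitamin A does to gene expression in these cells during adipogenesis.

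TGF-beta, BMPs and activins are secreted dimers that bring together a type II and a type I receptor kinase. The type I receptor then phosphorylates receptor SMADs, which are SMAD2 and SMAD3 after TGF-beta or activin and SMAD1, SMAD5 and SMAD9 after a BMP, and these enter the nucleus with SMAD4. In fat precursors TGF-beta and activin are known to hold back adipocyte formation, whereas BMP2 and BMP4 are known to commit stromal cells to the fat lineage. None of these steps is measured by RNA levels alone.

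The results below rest on hybridisation to 60-base probes, so probes of 7 members are shown as the files list them, 5′ to 3′, with coordinates on UMD3.1. GREM1 and BMP4 were each read by overlapping probes whose shared bases are in capitals, which shows how far 2 readings of 1 gene are independent. The other genes are shown by 1 probe each, in lower case throughout. For GREM1, BMP4 and TGFB1 the probe that stands for the gene is among those shown, while for ID1, SMAD3, TGFB3 and TGFBR3 a dimmer probe is shown, which gave a further reading beside the brightest one.
GREM1, first probe (chr10:30039430-30039489, minus strand): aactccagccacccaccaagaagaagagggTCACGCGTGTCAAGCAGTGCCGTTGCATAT
GREM1, second probe (chr10:30039400-30039459, minus strand): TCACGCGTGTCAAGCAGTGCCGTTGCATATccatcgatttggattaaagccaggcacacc
BMP4, first probe (chr10:66751590-66751649, minus strand): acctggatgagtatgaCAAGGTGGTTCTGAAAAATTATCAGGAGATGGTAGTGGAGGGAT
BMP4, second probe (chr10:66751574-66751633, minus strand): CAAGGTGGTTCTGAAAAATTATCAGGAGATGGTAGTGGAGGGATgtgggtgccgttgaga
ID1, dimmer probe (chr13:61726512-61726571, plus strand): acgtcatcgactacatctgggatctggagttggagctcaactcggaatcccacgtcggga
SMAD3, dimmer probe (chr10:13958400-13958647, plus strand): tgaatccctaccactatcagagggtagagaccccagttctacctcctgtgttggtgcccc
TGFB3, dimmest probe (chr10:88247496-88250153, minus strand): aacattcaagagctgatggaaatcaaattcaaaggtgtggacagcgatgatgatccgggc
TGFBR3, split probe (chr3:51854148-51856511, plus strand): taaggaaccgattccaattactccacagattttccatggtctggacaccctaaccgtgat
TGFB1, its single probe (no coordinate in the files): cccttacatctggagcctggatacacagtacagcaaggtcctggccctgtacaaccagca

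The GREM1 pair shares 30 bases and the BMP4 pair 44. Some probes of ACVR1, ACVRL1, ENG, FSTL1 and SMAD1, not shown, also overlap, so their readings are not fully independent. The intervals of the SMAD3, TGFB3 and TGFBR3 probes cover 248, 2658 and 2364 bases for 60 bases of probe, so their bases are not contiguous in the genome, and 14 of the 105 member probes are of this kind. Exon and UTR positions are not given in the files and were not used here. For ID2, 2 probes are listed at 1 position (chr11:88585054-88585113) and differ at 3 of 60 bases.

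Levels are given as log2 of the processed signal minus the array's 75th percentile, so that 0 is the brightness that 75% of spots do not exceed and a difference of 1 is a 2-fold change. Levels of different genes are not set against each other, since probes differ in brightness. Signals at the 75th percentile lay between 1094 and 1359, and 64.8% to 74.0% of probes were well above background, the lowest share on day 6 control array 1, where 103 spots were marked as not uniform. The arrays lay on 3 slides, of which slide 1 carried all of day 0 together with day 6 control array 1, slide 2 day 6 control arrays 2 and 3 with ATRA arrays 1 and 2, and slide 3 ATRA array 3 with all of 9cRA. A fit with slide as a block is set beside the counts. For day 6 control against day 0 and for ATRA against day 6 control it gives the difference within the slide they share. Day 6 control and day 0 share only slide 1, so their blocked values and counts rest on day 6 control array 1 alone against day 0. No slide held both 9cRA and day 6 control arrays, and their blocked value runs through ATRA.

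The labelled cell type was checked against its markers. Of 14 preadipocyte and stromal markers, 13 were well above background on all 12 arrays, among them PDGFRA, PPARG, ZNF423 and EBF1, and CD34 was so only on the retinoid arrays. Of 8 adipocyte markers, ADIPOQ was well above background on 0 arrays and LEP on 3, while FABP4 rose by 4.34 over culture and fell by 4.94 with ATRA and 4.64 with 9cRA. Of the 5 adipocyte markers tested, 2 rose and 1 fell over culture (60% passed an adjusted p of 0.05, against 62.4% of all genes). The lower one was the lipid droplet gene CIDEC at -2.84, and the median difference was -0.30. RNA of pooled cells cannot tell fewer cells of a type from less RNA per cell, which holds for every result here.

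Over 6 days of adipogenic culture without retinoid, the BMP targets ID1 and ID3 rose 16.6-fold and 3.41-fold, the ligand BMP4 rose 2.39-fold, and the BMP trap GREM1 fell by 2.52 on the log2 scale. In the same roles ID2 fell by 0.44 and the BMP binder CHRDL1 rose by 1.61. With limma over all 12 arrays, 33 of the 43 members tested passed an adjusted p of 0.05 in day 6 control against day 0, 24 higher and 9 lower. Among all genes tested 62.4% passed, 31.1% higher and 31.3% lower, and the median difference was 0.25 for the members and 0.0051 for all genes. With slide as a block 20 members were higher and 9 lower.

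With each retinoid, GREM1, TGFBR3, BMP4, BMP6 and LTBP1 fell, and BAMBI, TGFB3, SMAD3, ENG, SKIL and the ID genes rose. For ATRA against day 6 control 29 of 43 passed, 15 higher and 14 lower, where 46.2% of all genes passed, 23.8% higher and 22.4% lower. For 9cRA against day 6 control 28 of 43 passed, 16 higher and 12 lower, where 46.5% of all genes passed, 24.7% higher and 21.8% lower. Median differences of the members were 0.13 with ATRA and 0.055 with 9cRA, against 0.052 and 0.057 over all genes. With slide as a block 15 were higher and 12 lower with ATRA, and 12 higher and 10 lower with 9cRA, and the medians of the members turned to -0.01 and -0.10. The same fit called 3339 of all 17705 genes higher and 3527 lower with ATRA, and 1822 higher and 2263 lower with 9cRA. Its medians over all genes were 0.023 and -0.016. These comparisons share the day 6 control arrays, as does the one with day 0, so their values are given side by side and not counted as separate evidence.

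**Figure D1:**
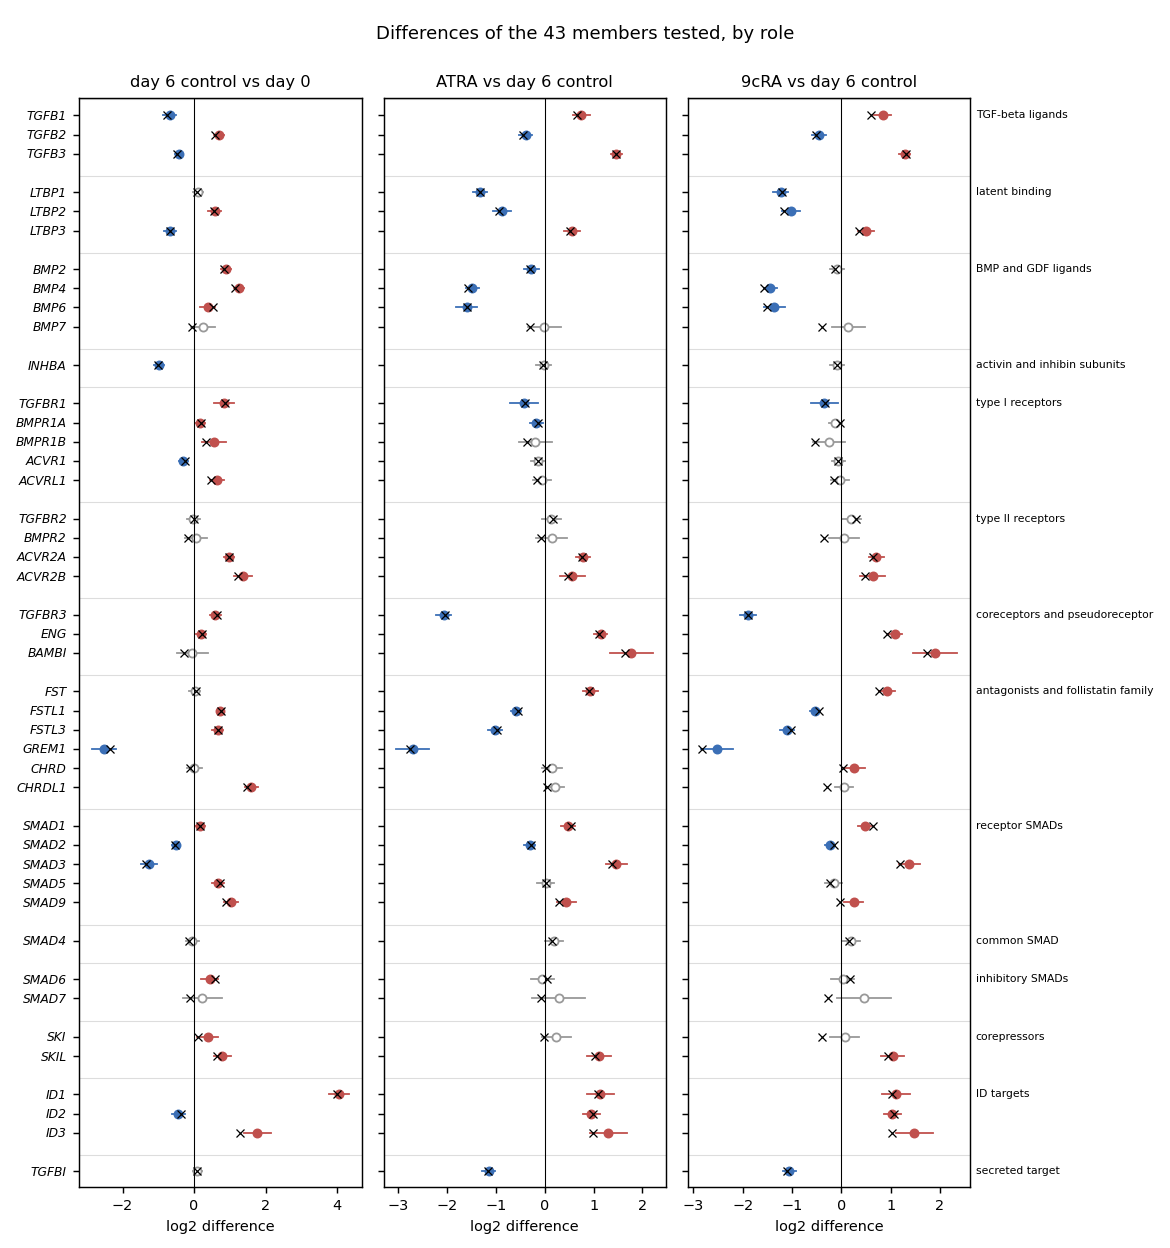
Differences of the 43 members tested, grouped by role, for the 3 comparisons with the day 6 control arrays. Dots are log2 differences with 95% confidence intervals of limma, filled red where higher and blue where lower at an adjusted p under 0.05 and open grey otherwise, and crosses are the values with slide as a block; ID1 lies farthest right over culture and GREM1 farthest left in every panel.

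Of the TGF-beta ligands, TGFB1 and TGFB3 were lower and TGFB2 higher after 6 days of culture, and each went the other way with either retinoid. TGFB1 read -2.47, -2.39 and -2.36 at day 0, -3.17, -3.18 and -2.94 in day 6 control, -2.42, -2.40 and -2.22 with ATRA and -2.22, -2.22 and -2.33 with 9cRA. The day 6 control arrays lay below all 9 others. TGFB1 fell by 0.69 over culture (SE 0.079, adjusted p 2.8e-05), rose by 0.75 with ATRA (SE 0.079, adjusted p 2.6e-05) and by 0.84 with 9cRA (adjusted p 1.3e-05). TGFB3, another isoform, read 1.69, 1.71 and 1.64 at day 0, 1.19, 1.26 and 1.32 in day 6 control, 2.74, 2.74 and 2.67 with ATRA and 2.52, 2.50 and 2.61 with 9cRA. It was lowest in day 6 control and stood above day 0 on every retinoid array. The fall over culture was 0.42 (adjusted p 3.6e-05), and the rise was 1.46 with ATRA (SE 0.051, adjusted p 8.2e-09) and 1.29 with 9cRA (adjusted p 2.1e-08), or 2.75-fold and 2.44-fold. All 3 tested TGFB3 probes were called in the same direction in each comparison, among them the split probe shown above at 1.66 with ATRA.

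TGFB2, the isoform that went up in culture, read 2.40, 2.28 and 2.42 at day 0, 2.96, 3.10 and 3.16 in day 6 control, 2.73, 2.63 and 2.68 with ATRA and 2.60, 2.67 and 2.61 with 9cRA. Day 6 control arrays were highest, and the retinoid arrays lay between them and day 0 without touching either. TGFB2 rose by 0.71 over culture (SE 0.063, adjusted p 3.9e-06), and fell by 0.39 with ATRA (adjusted p 5.5e-04) and 0.45 with 9cRA (adjusted p 2.3e-04).

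Some, though not all, latent TGF-beta binding proteins tether the inactive ligand to the matrix, and 3 of the 4 listed were tested. LTBP1 read 2.70, 2.79 and 2.90 at day 0, 2.88, 2.88 and 2.96 in day 6 control, 1.65, 1.55 and 1.56 with ATRA and 1.77, 1.67 and 1.58 with 9cRA. Day 0 and day 6 control overlapped, with a difference of 0.11 (95% interval -0.039 to 0.26), and every retinoid array lay below both. LTBP1 fell by 1.32 with ATRA (SE 0.066, adjusted p 1.0e-07) and by 1.23 with 9cRA (adjusted p 1.8e-07), and all 4 of its tested probes fell with each retinoid. LTBP2 rose by 0.58 over culture, and it fell by 0.87 with ATRA and 1.02 with 9cRA. LTBP3 moved the other way, falling by 0.67 over culture, and rising by 0.56 with ATRA and 0.50 with 9cRA. The 9cRA difference of LTBP3 was not called in the slide fit (0.36, adjusted p 0.1).

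Among BMP ligands, BMP4, which signals through the BMP receptors to SMAD1, SMAD5 and SMAD9, rose in culture and fell with either retinoid to below its day 0 arrays. BMP4 read -1.33, -1.36 and -1.29 at day 0, -0.17, 0.004 and -0.041 in day 6 control, -1.65, -1.51 and -1.51 with ATRA and -1.50, -1.55 and -1.49 with 9cRA. The day 6 control arrays stood more than 1 unit above all 9 others, and the retinoid arrays were lowest. BMP4 rose by 1.26 over culture (SE 0.059, adjusted p 3.3e-08) and fell by 1.49 with ATRA (SE 0.059, adjusted p 2.2e-08) and 1.45 with 9cRA (adjusted p 2.8e-08). The overlapping probe shown above gave 1.21, -1.49 and -1.41 in the same comparisons, and another, dim BMP4 probe was well above background on the 6 day 0 and day 6 control arrays and on no retinoid array.

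BMP6, a related ligand, read -4.34, -4.04 and -4.17 at day 0, -3.66, -3.92 and -3.82 in day 6 control, -5.46, -5.49 and -5.26 with ATRA and -5.12, -5.22 and -5.14 with 9cRA. All retinoid arrays lay below all day 0 and day 6 control arrays. BMP6 rose by 0.38 over culture (adjusted p 0.0052) and fell by 1.60 with ATRA (SE 0.094, adjusted p 3.5e-07) and 1.36 with 9cRA (adjusted p 1.3e-06). Its probe is dim, well above background on 2 of 3 arrays in each retinoid group, and with the normexp background correction the same differences were 0.21, -0.59 and -0.54. BMP2 rose by 0.89 over culture and fell by 0.27 with ATRA, and its difference with 9cRA was -0.085 (adjusted p 0.31). BMP7 passed in no comparison, with differences of 0.25, -0.0076 and 0.14. Of the activin subunits, INHBA, whose dimer is activin A, read 5.17, 5.22 and 5.26 at day 0, 4.19, 4.37 and 4.12 in day 6 control, 4.22, 4.20 and 4.20 with ATRA and 4.15, 4.09 and 4.19 with 9cRA. Day 0 was highest, and day 6 control overlapped both retinoid groups. INHBA fell by 0.99 over culture (SE 0.065, adjusted p 3.9e-07) and differed by -0.024 (95% interval -0.17 to 0.12) with ATRA and -0.085 (95% interval -0.23 to 0.059) with 9cRA. Its other tested probe was called lower with 9cRA, at -0.26.

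**Figure D2:**
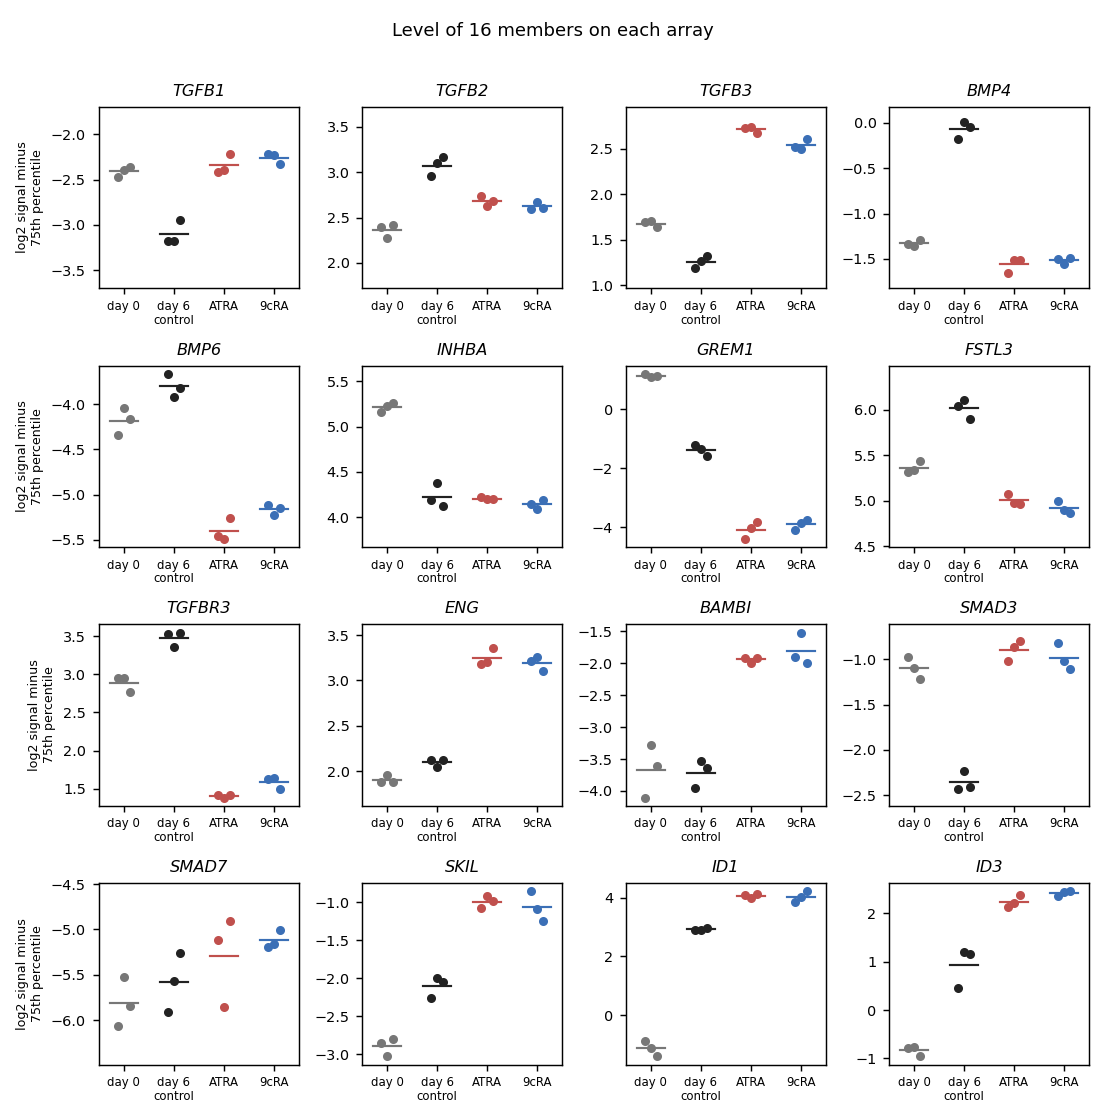
Level of 16 members on each of the 12 arrays, in log2 units relative to the 75th percentile of that array, with a point per array and a line at the mean of 3 (grey, day 0; black, day 6 control; red, ATRA; blue, 9cRA). The vertical range differs between panels and is at least 2 units; in the panels of TGFB1 and SMAD3 the day 6 control arrays stand below the other 9, in that of BMP4 above them, and in those of TGFBR3, ENG and BAMBI the retinoid arrays stand apart from the other 6.

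Type I receptors carry the kinase that acts on SMADs. Of 5 type I receptors tested, 4 rose and 1 fell over culture, where 31.1% of all genes rose and 31.3% fell. Differences ran from -0.30 to 0.83, with a median of 0.55, or 0.33 with slide as a block. The largest was TGFBR1, the TGF-beta type I receptor, at 0.83 (SE 0.12, adjusted p 1.9e-04). ACVRL1, the type I receptor known from endothelium, rose by 0.63, and ACVR1 fell by 0.30. ACVRL1's 3 probes did not read alike with the retinoids. The 2 brighter ones, which overlap and so are not separate readings, gave -0.06 and -0.07 with ATRA and were not called. The dimmest was called at 0.54. BMPR1B's brightest probe was at -0.19 with ATRA and not called, and 1 of its 3 other probes was called lower at -0.40.

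Type II receptors phosphorylate and so activate the type I receptor, and of 4 tested only the activin type II receptors ACVR2A and ACVR2B passed, in all 3 comparisons. That is 50% called in each, against 62.4%, 46.2% and 46.5% of all genes. ACVR2B read -4.98, -5.16 and -5.17 at day 0, -3.86, -3.73 and -3.62 in day 6 control, -3.17, -3.23 and -3.10 with ATRA and -2.84, -3.14 and -3.33 with 9cRA. The day 0 arrays were lowest, and day 6 control lay below the retinoid arrays. ACVR2B rose by 1.37 over culture (SE 0.12, adjusted p 2.9e-06), 0.57 with ATRA (adjusted p 0.0026) and 0.63 with 9cRA (adjusted p 0.0014). These were smaller with normexp correction, at 0.65, 0.38 and 0.40, and with slide as a block the 9cRA difference was not called (0.47, adjusted p 0.18). ACVR2A rose by 0.97 over culture, 0.79 with ATRA and 0.71 with 9cRA, and its 3 probes were called the same way in each. TGFBR2 differed by -0.019, 0.13 and 0.20, and BMPR2 by 0.043, 0.14 and 0.055, and neither passed, although 1 of 3 BMPR2 probes was called lower with 9cRA, at -0.20.

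The coreceptors TGFBR3 and ENG, which present ligand to the signalling receptors, and the pseudoreceptor BAMBI, which lacks a kinase and blocks signalling, all changed with the retinoids. TGFBR3 (betaglycan) read 2.95, 2.95 and 2.77 at day 0, 3.53, 3.36 and 3.55 in day 6 control, 1.42, 1.39 and 1.42 with ATRA and 1.63, 1.64 and 1.50 with 9cRA. Every retinoid array lay more than 1 unit below every other array. TGFBR3 rose by 0.59 over culture (adjusted p 3.5e-05) and fell by 2.07 with ATRA (SE 0.07, adjusted p 7.4e-09) and 1.89 with 9cRA (adjusted p 1.4e-08), 4.20-fold and 3.71-fold lower. Its other 3 probes gave values from -2.05 to -1.75 with ATRA. BAMBI read -4.10, -3.28 and -3.61 at day 0, -3.96, -3.54 and -3.64 in day 6 control, -1.91, -1.99 and -1.91 with ATRA and -1.91, -1.52 and -1.999 with 9cRA. Day 0 and day 6 control overlapped, and all retinoid arrays lay above both. BAMBI rose by 1.77 with ATRA (SE 0.20, adjusted p 4.2e-05) and 1.90 with 9cRA (adjusted p 2.6e-05), with a difference of -0.046 over culture (95% interval -0.49 to 0.40).

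ENG (endoglin) read 1.88, 1.96 and 1.88 at day 0, 2.13, 2.05 and 2.12 in day 6 control, 3.18, 3.20 and 3.36 with ATRA and 3.22, 3.25 and 3.10 with 9cRA. The retinoid arrays stood above all others, with a gap far wider than the spread within any group. ENG rose by 1.14 with ATRA (SE 0.062, adjusted p 1.8e-07) and 1.09 with 9cRA (adjusted p 2.8e-07). Each of its 4 probes, some of which overlap, was called higher with each retinoid. ENG and ACVRL1 are also known from endothelial cells, and the summed signal of 12 endothelial markers, relative to the array's 75th percentile, was 0.720 to 0.877 at day 0, 2.09 to 2.47 in day 6 control, 3.27 to 3.56 with ATRA and 3.24 to 3.52 with 9cRA. Without EGFL7, the brightest of them, it was 0.253 to 0.299, 0.312 to 0.401, 0.829 to 1.003 and 0.828 to 0.972. Of these markers PECAM1 and ESAM were well above background on 0 arrays, CDH5 on 1 and TIE1 on 2. EMCN was so on the 6 retinoid arrays alone, and rose by 4.53 with ATRA and 4.70 with 9cRA. VWF rose by 2.34 with ATRA and 1.96 with 9cRA, the latter 1.27 with normexp correction. Of 8 tested, 4 rose and 1 fell over culture, and 4 rose and 0 fell with each retinoid. That is 62.5%, 50% and 50% called, against 62.4%, 46.2% and 46.5% of all genes. In the slide fit 3 rose and 0 fell with ATRA, and 2 rose and 0 fell with 9cRA. The part of this list in the ENG result was not tested.

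Among antagonists GREM1, a secreted trap for BMP2, BMP4 and BMP7, had the largest fall of any member in each comparison with day 6 control or day 0. GREM1 read 1.20, 1.10 and 1.12 at day 0, -1.22, -1.34 and -1.59 in day 6 control, -4.39, -4.04 and -3.83 with ATRA and -4.11, -3.87 and -3.74 with 9cRA. No group overlapped another except ATRA and 9cRA, and day 0 was brightest. It fell by 2.52 over culture (SE 0.15, adjusted p 1.6e-07), by a further 2.71 with ATRA (SE 0.15, adjusted p 1.9e-07) and 2.52 with 9cRA (adjusted p 3.5e-07). That is 5.75-fold lower over culture, and 6.52-fold and 5.75-fold lower than day 6 control with the retinoids. The second probe, which shares 30 bases with the first, read -2.59 over culture, -3.60 with ATRA and -3.58 with 9cRA, so the direction was shared and the size with the retinoids was larger.

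CHRDL1, a chordin-like BMP binder, read -0.65, -0.71 and -0.57 at day 0, 0.84, 1.02 and 1.03 in day 6 control, 1.03, 1.12 and 1.36 with ATRA and 0.99, 1.01 and 1.05 with 9cRA. Day 0 lay below all day 6 arrays, whose groups overlapped in part. CHRDL1 rose by 1.61 over culture (SE 0.084, adjusted p 7.1e-08) and differed by 0.21 with ATRA and 0.053 with 9cRA, which did not pass. FSTL3, a follistatin-like binder of activins, read 5.32, 5.34 and 5.44 at day 0, 6.05, 6.11 and 5.90 in day 6 control, 5.08, 4.98 and 4.97 with ATRA and 5.00, 4.90 and 4.87 with 9cRA. Day 6 control was highest and the retinoid arrays lay below day 0. FSTL3 rose by 0.66 over culture (adjusted p 1.0e-05) and fell by 1.01 with ATRA (SE 0.066, adjusted p 7.5e-07) and 1.10 with 9cRA (adjusted p 4.2e-07). FST itself, the activin trap follistatin, rose by 0.94 with ATRA and 0.92 with 9cRA, with a difference of 0.017 over culture. FSTL1 rose by 0.73 over culture and fell by 0.58 with ATRA and 0.54 with 9cRA, with all 5 probes, some of which overlap, called the same way. CHRD (chordin) differed by 0.0032 and 0.15 in the first comparisons, which did not pass.

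SMAD3, which carries the TGF-beta and activin signal to the nucleus, fell over culture and rose with each retinoid. It read -0.97, -1.10 and -1.22 at day 0, -2.43, -2.23 and -2.41 in day 6 control, -1.01, -0.87 and -0.80 with ATRA and -0.82, -1.02 and -1.10 with 9cRA. Day 6 control was 1 unit or more below every other array, and the ranges of day 0 and the retinoid arrays met. SMAD3 fell by 1.26 over culture (SE 0.10, adjusted p 1.3e-06) and rose by 1.46 with ATRA (SE 0.10, adjusted p 8.2e-07) and 1.38 with 9cRA (adjusted p 1.4e-06). The split SMAD3 probe shown above gave -1.16, 1.37 and 1.12. SMAD2, its partner in the same branch, fell by 0.52 over culture, 0.31 with ATRA and 0.23 with 9cRA, and the last was no longer called in the slide fit (-0.15, adjusted p 0.27).

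In the BMP branch, SMAD9 read -1.48, -1.52 and -1.43 at day 0, -0.60, -0.38 and -0.35 in day 6 control, -0.095, -0.038 and 0.13 with ATRA and -0.078, -0.17 and -0.34 with 9cRA. Day 0 lay below all day 6 arrays. SMAD9 rose by 1.03 over culture (SE 0.089, adjusted p 3.1e-06) and 0.44 with ATRA (adjusted p 0.0023). SMAD5 rose by 0.67 over culture and differed by 0.021 and -0.16 with the retinoids. SMAD1 rose by 0.47 with ATRA and 0.48 with 9cRA. The common SMAD4 passed in no comparison, at -0.055, 0.20 and 0.20. Its other 2 probes read -0.28 (called) and -0.13 over culture, and were below 0 with each retinoid.

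The inhibitory SMAD6 and SMAD7 block the receptors and are themselves induced by the pathway. SMAD7 read -6.07, -5.52 and -5.84 at day 0, -5.91, -5.56 and -5.26 in day 6 control, -5.12, -5.85 and -4.91 with ATRA and -5.19, -5.16 and -5.00 with 9cRA. Day 0, day 6 control and ATRA overlapped, the 9cRA arrays lay within the range of ATRA, its probe was well above background on 9 of 12 arrays, and no comparison passed. The differences were 0.23 (95% interval -0.31 to 0.78) over culture, 0.29 (-0.26 to 0.83) with ATRA and 0.46 (-0.08 to 1.01) with 9cRA. SMAD6 rose by 0.44 over culture, or 0.21 with normexp correction and 0.67 as the mean of its probes, and differed by -0.051 and 0.028 with the retinoids, where its dimmer probe was called higher with 9cRA at 0.47. SKIL, a corepressor that binds SMADs, rose by 0.79 over culture (adjusted p 9.1e-05), 1.11 with ATRA (adjusted p 1.4e-05) and 1.04 with 9cRA (adjusted p 2.4e-05).

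The ID genes encode inhibitors of basic helix-loop-helix factors and are textbook targets of BMP signalling. ID1 read -0.88, -1.11 and -1.40 at day 0, 2.88, 2.90 and 2.98 in day 6 control, 4.09, 3.98 and 4.11 with ATRA and 3.85, 4.04 and 4.22 with 9cRA. Day 0 was lowest, day 6 control lay between day 0 and the retinoid arrays, and ATRA and 9cRA overlapped. ID1 rose by 4.05 over culture (SE 0.13, adjusted p 1.7e-09), the largest difference of any member in any comparison, and by 1.14 with ATRA (SE 0.13, adjusted p 3.9e-05) and 1.11 with 9cRA (adjusted p 4.8e-05). The dimmer ID1 probe shown above gave 3.50, 1.25 and 1.30, without a value on day 6 control array 1, where the software marked it as an outlier. Averaging both probes then leaves the brighter one alone on that array, and the retinoid differences became 0.67 (adjusted p 0.14) and 0.68 (adjusted p 0.13), no longer called.

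ID3 read -0.78, -0.76 and -0.95 at day 0, 0.46, 1.21 and 1.15 in day 6 control, 2.13, 2.22 and 2.38 with ATRA and 2.35, 2.45 and 2.45 with 9cRA. The order was day 0, day 6 control, then the retinoid arrays, whose 2 groups met, and day 6 control array 1, on the slide of the day 0 arrays, was the lowest of its group. ID3 rose by 1.77 over culture (SE 0.17, adjusted p 6.9e-06), 1.30 with ATRA (adjusted p 1.3e-04) and 1.48 with 9cRA (adjusted p 5.3e-05), and with slide as a block by 1.29, 0.99 and 1.03. ID2 differed in direction over culture, where it fell by 0.44 (adjusted p 5.9e-04), and it rose by 0.95 with ATRA and 1.03 with 9cRA. The ID2 probes that differ at 3 bases read alike, at 0.95 and 1.00 with ATRA. TGFBI, a secreted matrix protein named for its induction by TGF-beta, read -3.02, -3.03 and -3.10 at day 0, -2.97, -3.04 and -2.86 in day 6 control, -4.08, -4.15 and -4.07 with ATRA and -4.10, -3.99 and -3.96 with 9cRA. Day 0 and day 6 control were close, with a difference of 0.095, and all retinoid arrays lay below them. TGFBI fell by 1.14 with ATRA (SE 0.059, adjusted p 1.2e-07) and 1.06 with 9cRA (adjusted p 2.4e-07), and with normexp correction the differences were -0.63 and -0.61.

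**Figure D3:**
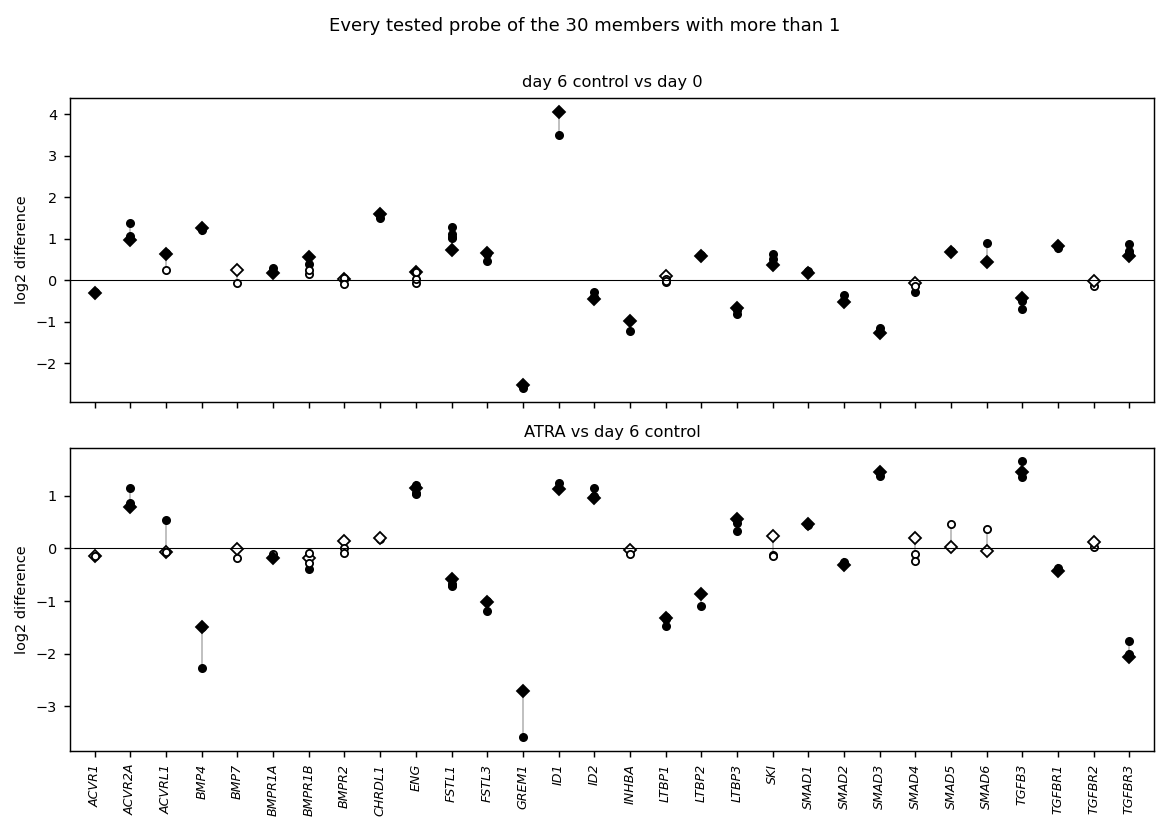
Log2 differences of every tested probe of the 30 members with more than 1 (81 probes), for day 6 control against day 0 and for ATRA against day 6 control; diamonds are the brightest probe, which stands for the gene, circles the others, filled where the adjusted p over all 31205 probes was under 0.05. No gene had probes called in both directions; the widest spread over culture was 0.55 (ID1) and with ATRA 0.89 (GREM1).

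Across the 30 members with several tested probes, probes of 0 genes were called in opposite directions in any comparison. Over culture all probes were called the same way for 22 of them, some for 4 and none for 4. With ATRA these numbers were 17, 3 and 10, and with 9cRA 17, 6 and 7. Of all 31205 probes tested, 61.7% were called over culture, 43.5% with ATRA and 43.5% with 9cRA. How far the probes of other genes read alike was not counted.

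Some calls of small size depended on single arrays. Over culture, BMPR1A (0.17) was no longer called without day 0 array 1 (0.18), 2 (0.17) or 3 (0.15), or without day 6 control array 1 (0.16) or 3 (0.16). SMAD1 (0.17) was lost without any of the 6, at 0.13, 0.19 and 0.18 without day 0 arrays 1, 2 and 3 and 0.17, 0.17 and 0.17 without day 6 control arrays 1, 2 and 3. SKI (0.38) was lost without day 0 array 1 (0.40), 2 (0.35) or 3 (0.38) and day 6 control array 2 (0.26) or 3 (0.36). The ENG call over culture (0.19) was lost without day 0 array 1, day 0 array 3 or day 6 control array 3 (0.18 each), and its value was 0.09 as the mean of probes. These genes, with BMPR1B (0.55), are among the 24 members higher over culture, and with slide as a block SKI (0.11), BMPR1A (0.19), SMAD1 (0.17) and BMPR1B (0.33) were not called.

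With ATRA, BMPR1A (-0.18) was lost without day 6 control array 1 (-0.17) or 3 (-0.16) and ATRA array 2 (-0.14) or 3 (-0.14), and TGFBR1 (-0.42) without ATRA array 1 (-0.37). In the slide fit neither was called, at -0.13 and -0.41. With 9cRA, TGFBR1 (-0.34) was lost without day 6 control array 1 or 2 (-0.33 each) or 3 (-0.38) and 9cRA array 2 (-0.39) or 3 (-0.22). CHRD (0.26) was lost without day 6 control array 1 (0.20) or 3 (0.23) and 9cRA array 2 or 3 (0.22 each). SMAD9 (0.25) was lost without day 6 control array 1 (0.17) or 2 (0.28) and 9cRA array 1 (0.19) or 2 (0.24). With slide as a block TGFBR1 was at -0.33, CHRD at 0.039 and SMAD9 at -0.022, none of them called.

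ATRA and 9cRA are geometric isomers, given here at the same dose and for the same time, and this pair was the 1 pair of compounds compared. Of the 43 members 0 passed in ATRA against 9cRA with limma, where 0.119% of all genes passed, 0.0621% higher and 0.0565% lower. At an unadjusted p under 0.05 there were 5 members, and 10.5% of all genes. With array weights estimated by limma 8 members passed, 3 higher and 5 lower, as did 1271 genes higher and 1609 lower among all genes. The smallest adjusted p was that of TGFB3, 0.27, with 0.18 more signal with ATRA (95% interval 0.063 to 0.29). BMP2 differed by -0.19 (-0.33 to -0.041), BMP6 by -0.24 (-0.45 to -0.03), TGFBR3 by -0.18 (-0.34 to -0.022) and SMAD5 by 0.18 (0.0092 to 0.35). The 95% intervals of all 43 lay within 1 unit of 0 and those of 39 within 0.5. Those reaching beyond 0.5 were of SMAD7 (-0.72 to 0.37), BAMBI (-0.57 to 0.31), ID3 (-0.56 to 0.20) and GREM1 (-0.51 to 0.15). A p that misses the threshold does not show that the isomers act alike, and these intervals bound the differences that the arrays leave possible.

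**Figure D4:**
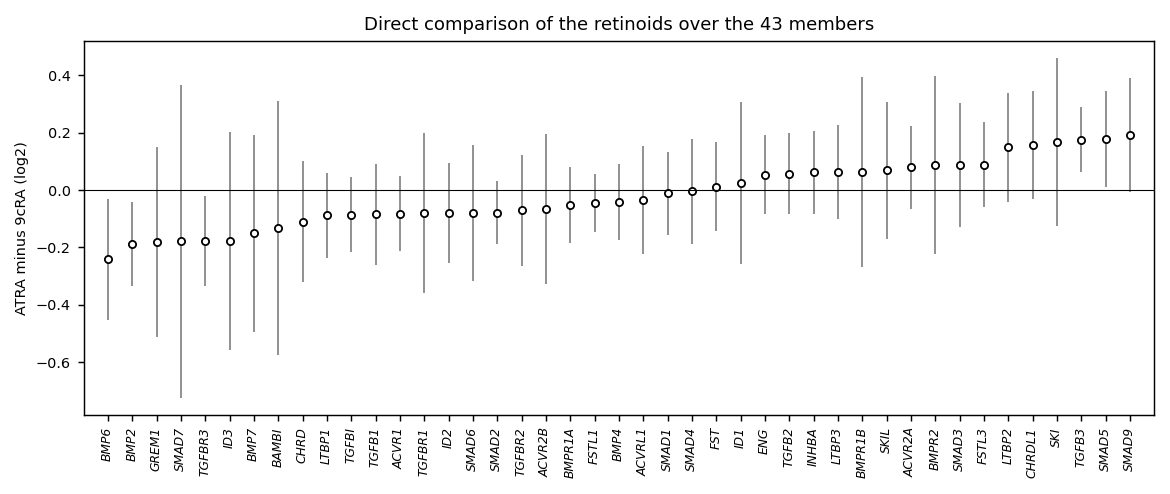
ATRA minus 9cRA for the 43 members tested, in log2 units and ordered by size, with 95% confidence intervals of limma. All points are open because 0 passed an adjusted p of 0.05; all intervals lie within 1 unit of 0, and the widest is that of SMAD7.

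Pathway genes beyond the 51 were given by lists, chosen with earlier results of these data known. Of 24 textbook TGF-beta target genes tested, 10 rose and 5 fell over culture, and 5 rose and 14 fell with ATRA and likewise with 9cRA, with medians of 0.11, -0.63 and -0.60. The shares called were 62.5%, 79.2% and 79.2%, against 62.4%, 46.2% and 46.5% of all genes, and with slide as a block 10 rose and 5 fell, 5 rose and 14 fell, and 4 rose and 14 fell. LOX, which crosslinks collagen, rose by 1.17 over culture and the matrix protein FN1 (fibronectin) by 0.83, while CNN1 (calponin) fell by 1.31. With ATRA the smooth muscle actin ACTA2 fell by 3.86, tenascin TNC by 3.60, and LMCD1 by 3.92, and with 9cRA the differences were -3.80, -3.65 and -3.59. ACTA2, CNN1 and TAGLN are also contractile genes, and of 6 pericyte and smooth muscle markers on the array 3 were tested, of which CSPG4 fell by 1.90 with ATRA (a difference of -1.01 as the mean of its probes), and MCAM and KCNJ8 did not pass.

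Of 14 textbook BMP target genes tested, 2 of which (SMAD6 and SMAD7) are among the 51, 7 rose and 2 fell over culture, 5 rose and 0 fell with ATRA, and 6 rose and 1 fell with 9cRA. The shares called were 64.3%, 35.7% and 50.0%, near or below those of all genes given above. With slide as a block the counts were 6 and 3, 4 and 0, and 3 and 0. ATOH8 rose by 1.91 and HEY1 by 1.00 (with normexp correction 0.63) over culture, and HES1 fell by 1.03. The zinc finger factor ZNF423, which is also a preadipocyte marker, rose by 2.03 with ATRA and 1.95 with 9cRA, and GATA2 by 1.03 and 1.06. Medians of this list were 0.32, 0.29 and 0.41, and over all genes tested 0.0051, 0.052 and 0.057. In the slide fit the list's medians were 0.14, 0.091 and 0.0053, and those of all genes -0.034, 0.023 and -0.016.

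**Figure D5:**
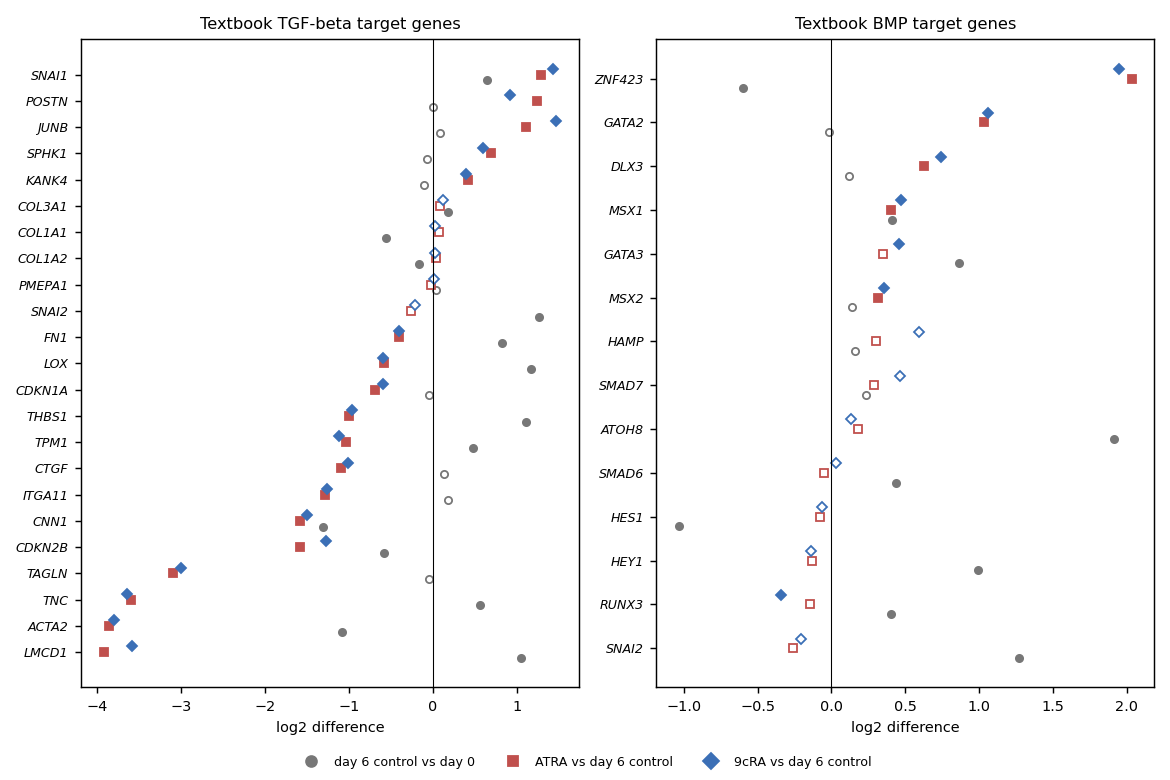
Log2 differences of textbook TGF-beta targets (23 of the 24 tested) and BMP targets (all 14 tested) over culture (grey circles), with ATRA (red squares) and with 9cRA (blue diamonds), ordered by the ATRA value and filled where the adjusted p was under 0.05. LMCD1, ACTA2, TNC and TAGLN lie farthest left with both retinoids, and ZNF423 farthest right among the BMP targets; SNAI2 is in both lists.

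A list of genes that release or bind latent TGF-beta, the fibrillin FBN1 among them, had 12 tested. Of these 3 rose and 5 fell over culture, 3 rose and 6 fell with ATRA, and 4 rose and 6 fell with 9cRA. That is 66.7%, 75% and 83.3% called, against 62.4%, 46.2% and 46.5% of all genes. In the slide fit the counts were 3 and 5, 2 and 5, and 2 and 3. The thrombospondin THBS1, an activator and also in the target list, rose by 1.12 over culture and fell by 1.00 with ATRA and 0.96 with 9cRA. The integrin subunit ITGAV fell by 0.84 with ATRA and 0.75 with 9cRA (-0.45 with slide as a block), and ITGB3 rose by 1.94 and 1.80. PLAU (urokinase) fell by 1.40 over culture and rose by 1.30 and 1.32 with the retinoids.

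Of 10 other antagonists tested, 3 rose and 2 fell over culture, 1 rose and 3 fell with ATRA, and 1 rose and 4 fell with 9cRA, or 50.0%, 40.0% and 50.0% called against 62.4%, 46.2% and 46.5% of all genes. In the slide fit these were 2 and 1, 1 and 3, and 1 and 4. The proteoglycan BGN, which binds TGF-beta, rose by 0.68 over culture, or 1.09 as the mean of its probes, and fell by 1.27 and 1.21, and CRIM1 fell by 0.94 and 0.98. Of 4 other receptors and coreceptors, 2 rose and 1 fell over culture, and 1 rose and 1 fell with each retinoid, the same counts as in the slide fit. That is 75%, 50% and 50% called, against 62.4%, 46.2% and 46.5% of all genes. RGMB, a BMP coreceptor, rose by 1.24 and then fell by 1.38 and 1.36, and with normexp correction these were 0.80, -0.87 and -0.83. LRRC32, which holds latent TGF-beta at the cell surface, fell by 0.76 and rose by 1.37 and 1.69. Of 9 other ligands, 2 rose and 2 fell over culture, 4 rose and 0 fell with ATRA, and 3 rose and 0 fell with 9cRA. That is 44.4%, 44.4% and 33.3% called, against 62.4%, 46.2% and 46.5% of all genes. In the slide fit 1 rose and 2 fell, 1 rose and 1 fell, and 2 rose and 1 fell. The inhibin alpha subunit INHA fell by 1.00 over culture and rose by 0.99 with ATRA and 0.67 with 9cRA. Of 23 intracellular regulators, 7 rose and 8 fell over culture, 4 rose and 4 fell with ATRA, and 5 rose and 5 fell with 9cRA, or 65.2%, 34.8% and 43.5% called against 62.4%, 46.2% and 46.5% of all genes. In the slide fit these were 7 and 10, 4 and 5, and 2 and 2. Among them were the SMAD corepressor TGIF1, which rose by 0.50, 0.69 and 0.80, and the ubiquitin ligase NEDD4L, at 0.60, -0.43 and -0.44.

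Markers of other cells moved between the groups as well, and their part in the results above was not tested. The summed signal of 11 skeletal muscle markers was 74.7 to 79.2 at day 0, 45.5 to 49.7 in day 6 control, 20.8 to 21.2 with ATRA and 22.4 to 24.1 with 9cRA, most of it from DES. Without DES, whose difference turned to 1.26 with ATRA and 1.34 with 9cRA as the mean of its probes, the sum was 6.41 to 6.89, 4.75 to 6.27, 4.23 to 4.44 and 4.31 to 4.69. DES, MYOD1, ACTA1, CDH15, MYOG and CKM were well above background on all 12 arrays, PAX7 and MYH8 on 1 each, and MYF5 and MYF6 on 0. MYH3 was so on 0 day 0 arrays and on all 9 day 6 arrays, and rose by 2.86 over culture. Of 7 tested, 1 rose and 2 fell over culture, and 1 rose and 2 fell with 9cRA. With ATRA 2 rose, among them CDH15 at 0.95, and 2 fell. Over culture, with ATRA and with 9cRA the medians were 0.17, 0.25 and 0.27. That is 42.9%, 57.1% and 42.9% called, against 62.4%, 46.2% and 46.5% of all genes. For 7 macrophage and leukocyte markers the summed signal was 1.92 to 2.24, 1.40 to 2.13, 4.08 to 4.28 and 3.82 to 4.22. PTPRC, CD14 and CD68 were well above background on all 12 arrays, CSF1R on 11, and AIF1, ITGAM and CD163 on 0. Of 4 tested, 1 rose and 2 fell over culture, and 4 rose and 0 fell with each retinoid. That is 75%, 100% and 100% called, against 62.4%, 46.2% and 46.5% of all genes. In the slide fit 3 rose and 0 fell with ATRA, and 2 rose and 0 fell with 9cRA. The summed signal of 14 stromal markers was 593 to 616, 714 to 751, 558 to 612 and 580 to 596. For 8 adipocyte markers it was 4.13 to 4.27, 70.1 to 87.6, 2.79 to 2.92 and 3.04 to 3.97. Nearly all of the adipocyte sum was FABP4, and without it the sum was 0.406 to 0.432, 0.334 to 0.339, 0.329 to 0.359 and 0.346 to 0.377.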

How the data were processed

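RNA from each of 4 groups was hybridised to 3 Agilent arrays with 1 colour (12 arrays, 100 ng RNA each). The deposited scanner files hold the processed signal, an intensity that the scanning software (Feature Extraction 10.7.3.1, annotation on UMD3.1, per the file headers) had already background-subtracted. The authors' deposited table holds 1 log2 value per group, with scale and centring not stated. It served as an alternative, but it covers the same samples. Its values differed by a median of 0.0026 to 0.0028 from group means computed here with each probe centred.

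From the intensities, log2 signal minus each array's 75th percentile was computed, leaving out control spots and spots marked as outliers. Each gene was represented by its brightest probe. Genes were compared with limma 3.58.1 (R 4.3.3) over all 12 arrays, two-sided, with Benjamini-Hochberg adjustment over 17705 genes and a threshold of 0.05. The code was tested on simulated data with 200 changed genes. The number of arrays limits the precision. The members and lists were chosen with earlier results of these data known. Values per array are given for members called with a log2 difference of at least 1, up to 12 a comparison, and for TGFB1, TGFB2, TGFB3, BMP4, INHBA, SMAD7, ID1 and ID3. Genes of other lists are named from the 4 with the smallest adjusted p; 1 of them is counted in its list but not reported here by name. Alternatives were other normalizations, filters, probe rules, weights, slide as a block and leaving out each array. Of the 105 member probes, 86 had an accession in the RefSeq gene table (ARS-UCD2.0), and all 86 gave the same symbol.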

Additional observations from a re-analysis of the deposited data

How the results depend on the processing

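Counts of members called kept within 1.5 times of those reported under every alternative run for the comparisons with day 6 control or day 0. Leaving out each array in turn gave 29 to 33 members over culture, 28 to 32 with ATRA, 25 to 27 with 9cRA and 0 for ATRA against 9cRA. With array weights 8 members passed in ATRA against 9cRA (3 higher, 5 lower), as did 1271 genes higher and 1609 lower among all genes, against 11 and 10 with equal weights. The cause was not tested. With slide as a block the 9cRA comparison called 1822 genes higher and 2263 lower, against 4381 and 3851 without it, and SMAD9 reversed to -0.022, CD68 to -0.077 and ROBO4 to -0.0062. With the mean of a gene's probes CD68 reversed to -0.11 with 9cRA, and the muscle gene DES, whose probes differ in direction, reversed to 1.26 with ATRA and 1.34 with 9cRA. The alternatives for genes outside the 51, and the marker sums without the brightest marker, were chosen after seeing the data. Of the 90 member calls, 78 held with slide as a block, 84 with median scaling, 83 with no filter on dim probes and 89 with normexp correction. The 90 differences had the same direction in the authors' deposited table, which holds the same samples, so this match is not separate evidence. Median scaling moved the median over all genes by less than 0.1 in each comparison. No paired analysis was made, because nothing says that arrays with the same number in different groups were matched. Signal over background limits the size of differences read by dim probes, and those of BMP6, ACVR2B and TGFBI were smaller with normexp correction.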
